A study of Arabidopsis thaliana with 9 samples.

Results

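EXPA8 (AT2G40610) and EXPA9 (AT5G02260), which encode alpha-expansins, and GH9C2 (AT1G64390), which encodes a family 9 endoglucanase, are 3 cell wall genes of the 16548 genes that the array measured with a transcript cluster (its unit for a gene or transcript) paired with 1 gene. They were taken by name, each at its single such transcript cluster, to describe which of 2 cytokinins went with the higher level of each gene. They were chosen by their log2 differences between the 3 groups of these same arrays, so their levels and differences are given as a description, without a test.

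The leaves came from 21-day-old Arabidopsis thaliana plants of Col-0, the accession most used in the laboratory, and are labelled senescent. Each sample was a pool of 10 to 15 detached leaves, immersed in MS medium and kept dark for 48 h. The medium held 10 µM of compound 3, 10 µM of compound 6 or, for the control, 0.05% DMSO, the solvent. There were 3 biological replicates in each of the 3 groups and 1 Affymetrix array a replicate. The labels call both compounds cytokinins and give them by code name alone.

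A plant cell is held in by a wall of cellulose microfibrils tied together by xyloglucan and embedded in pectin. Expansins are secreted proteins that loosen this network at acid pH without cutting its polymers, so that a cell under turgor can extend. Family 9 endoglucanases cut the 1,4-beta-glucan chain of cellulose, and members of class C, such as GH9C2, carry a carbohydrate-binding module beside the catalytic domain. Cytokinins delay leaf senescence, and they are also known for promoting the expansion of leaf and cotyledon cells.

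The deposited values are log2 RMA values, in which a difference of 1 is a 2-fold change. Array medians over clusters paired with 1 gene lay between 3.7 and 3.81. Over all clusters they were lower in control, at 3.71 to 3.83, than with compound 3 (3.87 to 3.96) or compound 6 (3.89 to 4.15). The labelled tissue could be checked on few genes, since 8 of 46 listed cell type markers had a cluster paired with 1 gene. The chloroplast transcripts rbcL and psbA stood at 13.2 to 13.5 in every group mean, and RCA, Rubisco activase, at 9.90 in control leaves. AUR1, a mitotic kinase, stood at 3.44 to 3.63 and the shoot meristem gene CLV3 at 1.42 to 1.46. No marker of epidermis, trichome or xylem was measured. Labels number the control samples 7 to 9, those of compound 6 16 to 18 and those of compound 3 19 to 21. Any separate handling of a group therefore cannot be told apart from treatment, between the compounds as well as against control. Leaves were not measured at the start of the 48 h, and a higher value means higher than in control leaves at that time.

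All 3 genes stood higher with either compound than in control leaves, but the compound with the higher level was not the same one. EXPA8 and GH9C2 had their highest mean with compound 6, EXPA9 with compound 3. In bulk leaves, more RNA per cell and more cells that hold the transcript cannot be told apart.

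EXPA8 read 4.30, 4.18 and 4.40 on the 3 control arrays. With compound 3 it read 5.74, 6.84 and 6.37, and with compound 6 it read 7.47, 7.82 and 6.81. Every treated array lay above every control array, by at least 1.34, while the ranges of the 2 compounds met, since the highest compound 3 array lay 0.02 above the lowest compound 6 array. The mean was 4.29 ± 0.11 in control leaves, 6.32 ± 0.55 with compound 3 and 7.37 ± 0.51 with compound 6 (log2 value, SD, n = 3). The difference from control was 2.03 with compound 3, or 4.07-fold, and 3.08 with compound 6, or 8.44-fold. Compound 6 minus compound 3 came to 1.05 on the log2 scale (moderated SE 0.29), 2.07-fold. The order of means was compound 6, compound 3, control, and the arrays of the first 2 of these overlap.

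EXPA9 gave the opposite order between the compounds. Its control arrays read 3.19, 3.32 and 3.60, under the array medians, so that its folds over control are approximate. It read 6.69, 6.61 and 6.40 with compound 3, and 5.61, 5.40 and 4.83 with compound 6. The 3 groups did not overlap, and the lowest compound 3 array lay 0.78 above the highest compound 6 array. The means were 3.37 ± 0.21 in control leaves, 6.57 ± 0.15 with compound 3 and 5.28 ± 0.41 with compound 6 (log2 value, SD, n = 3). Above control this was 3.20 with compound 3, or 9.16-fold, and 1.91 with compound 6, or 3.76-fold. Compound 6 minus compound 3 was -1.28 (SE 0.23), so that EXPA9 was 2.43-fold higher with compound 3.

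GH9C2 stepped up from control to compound 3 to compound 6 with no overlap between groups. It read 4.34, 3.74 and 4.63 on control arrays, 5.31, 5.28 and 5.21 with compound 3, and 6.52, 6.28 and 6.31 with compound 6. The control arrays spread over 0.89 and the compound 3 arrays over 0.10. The means were 4.24 ± 0.45, 5.27 ± 0.05 and 6.37 ± 0.13 (log2 value, SD, n = 3). The difference from control was 1.03 with compound 3, or 2.04-fold, and 2.13 with compound 6, or 4.39-fold. Compound 6 minus compound 3 was 1.11 (SE 0.23), 2.15-fold, with a gap of 0.97 between the nearest arrays of the 2 groups.

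**Figure D1:**
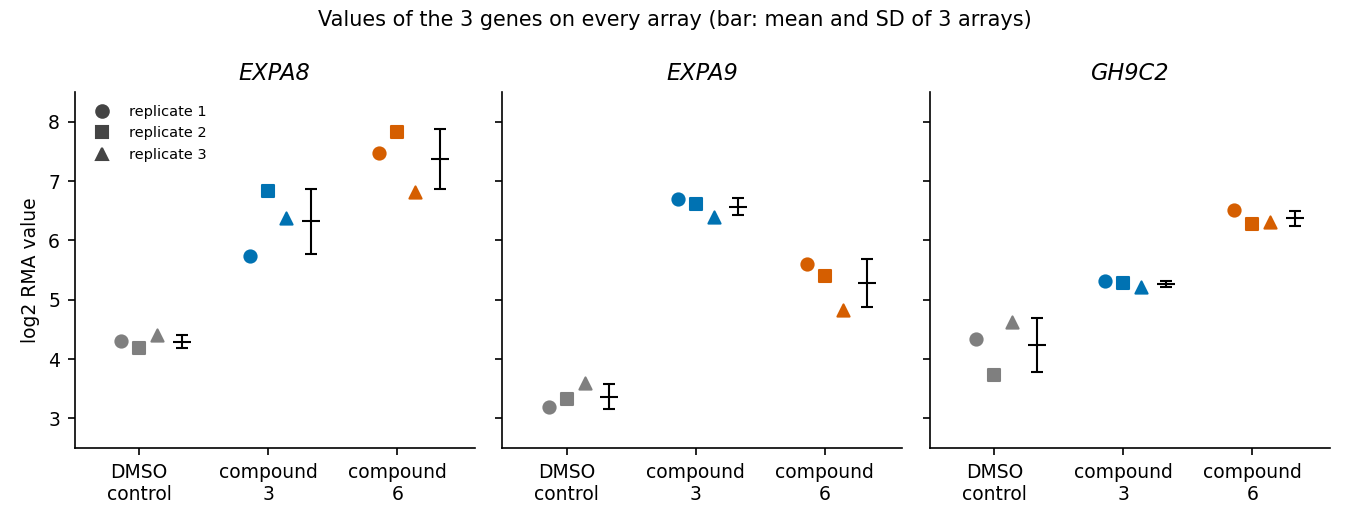
Log2 RMA value (vertical axis) of EXPA8, EXPA9 and GH9C2 on each of the 9 arrays, by group, with the mean and SD of 3 arrays as a black bar beside each group. EXPA8 and GH9C2 are highest with compound 6, and EXPA9 is highest with compound 3 at 6.40 to 6.69.

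Set against all 16722 transcript clusters tested, the members lay far out in their own direction. Ordered by the difference from control, EXPA9 was number 9 from the top with compound 3 and number 81 with compound 6. EXPA8 was number 61 with compound 3 and number 10 with compound 6, and GH9C2 number 522 and number 49. In the direct comparison of the compounds EXPA9 was number 17 from the compound 3 end, while GH9C2 and EXPA8 were numbers 71 and 85 from the compound 6 end. These places follow from how the genes were chosen.

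All 3 members had every treated array above every control array with either compound, which was so for 12.9% of all clusters with compound 3 and for 11.9% with compound 6. Between the compounds 2 of the 3 were free of overlap, EXPA9 and GH9C2, against 16.0% of all clusters. Nothing is read from these counts, since the same contrasts chose the members.

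The opposite orders can be put in 1 figure per pair of genes by taking the difference of the 2 genes within each array, which removes any shift shared by the whole array. From compound 3 to compound 6, EXPA8 gained 2.34 on EXPA9 on the log2 scale (SE 0.33, from 3 groups of 3 arrays), and the within-array differences of the 2 compounds did not overlap. GH9C2 gained 2.39 on EXPA9 (SE 0.25), again without overlap. The members were chosen on these contrasts, so these gains and the lack of overlap only describe the opposite orders. The share of all gene pairs without overlap was not computed. GH9C2 and EXPA8 moved by nearly the same amount between the compounds, 1.11 and 1.05, and their difference of 0.05 (SE 0.40) lay well inside the spread of the arrays. Relative to control, GH9C2 changed less than EXPA8 with either compound, by -1.0 with compound 3 and -0.94 with compound 6 (SE 0.40).

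**Figure D2:**
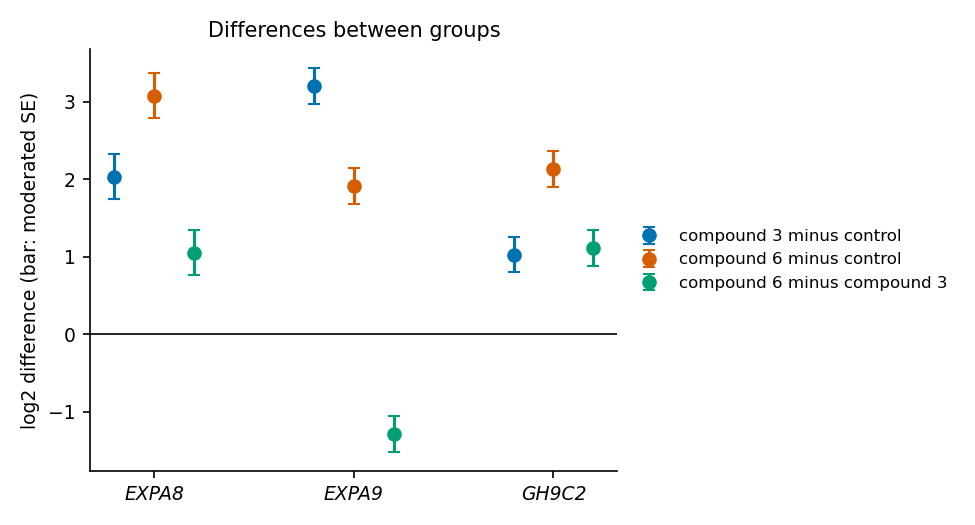
Log2 difference between groups (vertical axis) for each gene, with bars for the moderated standard error from the fit over 9 arrays. Compound 6 minus compound 3 is above 0 for EXPA8 (1.05) and GH9C2 (1.11) and below 0 for EXPA9 (-1.28).

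The next question was how the remaining genes of the same families behaved. A list of 121 cell wall genes was drawn up by family from general knowledge, and 57 of them had a transcript cluster paired with 1 gene, the 3 members included. Group means were compared in a single limma fit to all 9 arrays. Called means a two-sided p under 0.05 after Benjamini-Hochberg adjustment over all 16722 clusters. Of the 54 genes other than the members, 3 were called with compound 3 and 3 with compound 6, which is 5.56% in each case. Of all clusters 11.7% were called with compound 3 and 10.3% with compound 6, and these shares were not tested against each other. Their order for compound 6 turned without compound 6 replicate 3, with 6 wall genes called, 11.1% against 7.56% of all clusters, and with dim clusters left out, 30.0% of 20 wall genes against 22.2%. The median difference of the 54 was 0.08 with compound 3 and -0.06 with compound 6, beside 0.01 and -0.02 over all clusters. Only 20 of the 54 had any group mean at or above 3.75, the limit for dim clusters. For the others an absent call need not mean an absent response. The single families are small, so a family with none called is not read as a result.

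Alpha-expansins are the family of EXPA8 and EXPA9. Of 26 listed, 14 were measured, and none of the 12 others was called with either compound by limma. Their differences from control ran from 0.04 to 0.89 with compound 3 and from -0.24 to 1.06 with compound 6. Those of EXPA8 were 2.03 and 3.08 and those of EXPA9 3.20 and 1.91, and these genes were chosen by such differences. The nearest was EXPA16, which read 3.16, 4.05 and 4.14 on control arrays, 4.37, 5.45 and 4.20 with compound 3 and 5.26, 5.04 and 4.24 with compound 6. Its treated arrays lay just above its control arrays, with differences of 0.89 (limma, adjusted p = 0.147) and 1.06 (adjusted p = 0.0853). EXPA4 had a difference of 0.30 with compound 3 and 0.69 with compound 6. EXPA20 had 2 clusters, with differences of 0.20 and -0.21 with compound 3 and of -0.06 and -0.52 with compound 6, and neither cluster passed.

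EXPA7 and EXPA18, known for acting in root hairs, had group means of 2.08 to 2.36 and 2.03 to 2.28, and neither passed the test. EXPA21 to EXPA26 lie next to each other in the genome and encode similar proteins, so that their probes may not keep them apart. Among these 6, EXPA23 had the greatest difference with compound 6, 0.73 (95% interval -0.01 to 1.46), and EXPA26 with compound 3, 0.44 (-0.02 to 0.90).

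Expansin-like EXLB1 and EXLA1 fell with both compounds, and no beta-expansin was called. Expansin-like proteins have the domains of expansins, but wall loosening has not been established for them. Of 9 measured genes 2 fell with compound 3 and 2 with compound 6, and 7 did not pass. Of all clusters 6.11% were called lower with compound 3 and 4.72% with compound 6, and both comparisons share the control arrays. EXLB1 (AT4G17030) read 5.51, 5.76 and 5.80 on control arrays, 3.82, 4.03 and 3.67 with compound 3 and 4.14, 3.88 and 4.07 with compound 6. It fell by 1.85 with compound 3 (SE 0.19; limma, adjusted p = 2.58e-05) and by 1.66 with compound 6 (SE 0.19; limma, adjusted p = 8.97e-05), 3.60-fold and 3.16-fold lower than control.

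EXLA1 (AT3G45970) read 7.45, 7.31 and 7.15 on control arrays, 6.04, 6.40 and 6.03 with compound 3 and 6.42, 6.52 and 6.88 with compound 6. It fell by 1.15 with compound 3 (SE 0.20; limma, adjusted p = 0.00199) and by 0.70 with compound 6 (SE 0.20; limma, adjusted p = 0.0435). The compound 6 call of EXLA1 was kept in 2 of 9 fits that each left out 1 array, with adjusted p from 0.0145 to 0.161 over all alternatives. The compound 3 call was kept in 9 of 9. EXPB3, a beta-expansin, had a difference of 0.70 with compound 6 (adjusted p = 0.0791) and 0.21 with compound 3, and it passed as higher with compound 6 when dim clusters were left out.

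Family 9 endoglucanases, the family of GH9C2, had 19 of 25 listed genes measured. Of the 18 others 1 rose with each compound, or 5.56%, and 17 did not pass. Of all 16722 clusters 936 were called higher with compound 3 and 939 with compound 6, a share close to that of this family. The gene that rose was GH9B7 (AT1G75680), a class B member, which lacks the binding module of class C. It read 5.50, 4.61 and 5.05 on control arrays, 6.88, 6.93 and 6.75 with compound 3 and 6.63, 6.91 and 6.93 with compound 6. It rose by 1.80 with compound 3 (SE 0.23; limma, adjusted p = 0.00014) and by 1.77 with compound 6 (SE 0.23; limma, adjusted p = 0.000219), 3.47-fold and 3.40-fold.

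Between the compounds GH9B7 did not pass. Its difference of compound 6 minus compound 3 was -0.03, against 1.11 for GH9C2, with a 95% interval of -0.52 to 0.46. The other 2 measured members of class C, GH9C1 and GH9C3, did not pass. Both read low, with group means of 2.81 to 2.93 and of 2.93 to 3.24, under the array medians. GH9C1 differed from control by 0.07 with compound 3 and -0.05 with compound 6, and GH9C3 by 0.31 and 0.11. Among the 17 that did not pass, differences ran between -0.39 and 0.88 over both compounds.

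Xyloglucan endotransglucosylase/hydrolases (XTH) cut and rejoin xyloglucan, and 10 of 33 were measured. None was called with either compound by limma, with differences from -0.55 to 0.42 with compound 3 and from -0.71 to 0.57 with compound 6. XTH29 had the lowest value in both, -0.55 (adjusted p = 0.149) and -0.71 (adjusted p = 0.0615). XTH18 had 0.42 with compound 3 and XTH19 0.57 with compound 6. Of 17 pectin genes 5 were measured and none was called. PME35, a pectin methylesterase, had a difference of -0.64 with compound 3 (adjusted p = 0.0523), and PME41 one of 0.56 with compound 6 (adjusted p = 0.0944). Under each of 3 other scalings PME35 passed with compound 3 and XTH29 with compound 6. PGX3, a polygalacturonase, had differences of 0.09 and 0.45. At an unadjusted p under 0.05 there were 7 of the 54 genes with compound 3, or 13.0% against 23.1% of all clusters, and 11 with compound 6, or 20.4% against 21.0%. Of the 10 listed cellulose synthase genes none had a cluster paired with 1 gene, and these are not analysed here.

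**Figure D3:**
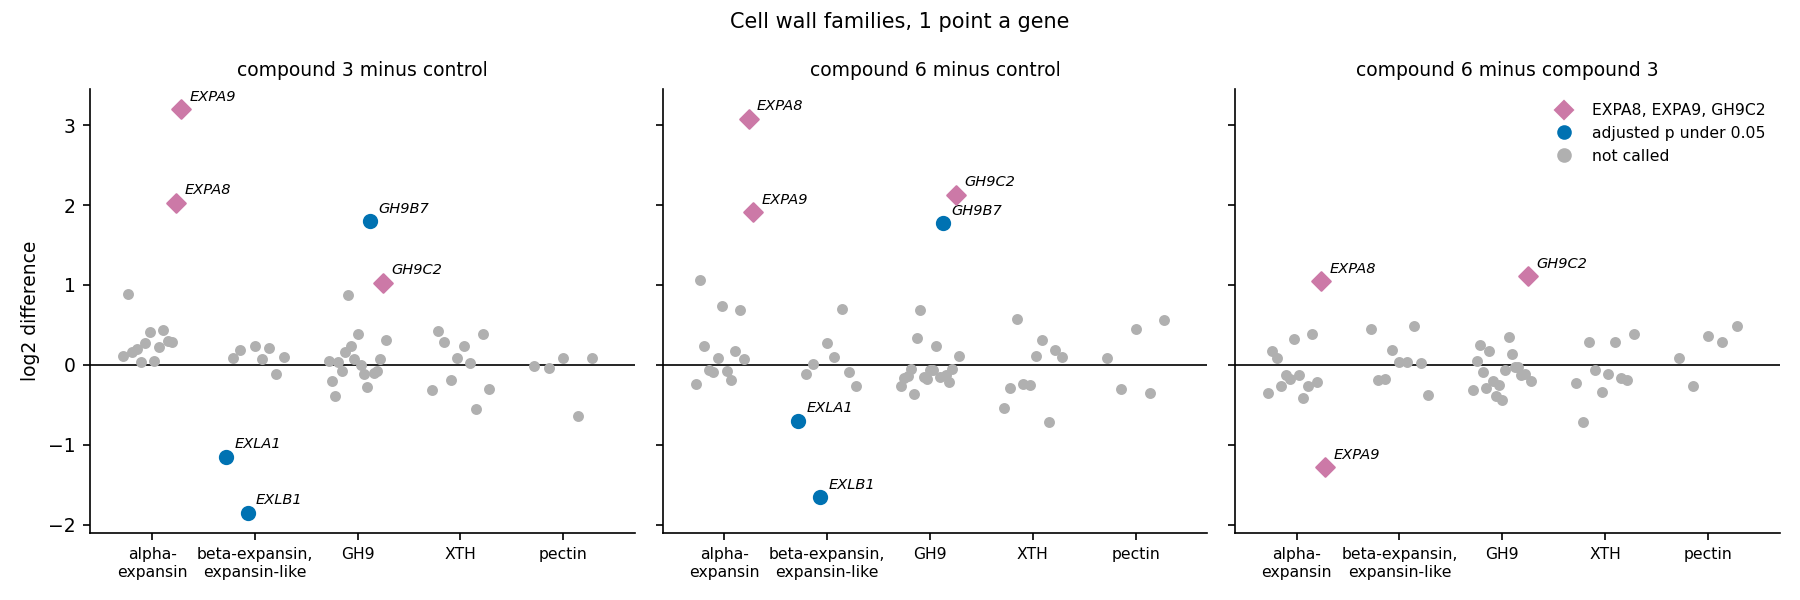
Log2 difference (vertical axis) of each measured cell wall gene by family, in 3 panels for the 3 comparisons, with EXPA8, EXPA9 and GH9C2 as diamonds and other genes called by limma as blue points. Most grey points lie near 0, GH9B7 lies at 1.80 and 1.77 above control, EXLB1 at -1.85 and -1.66, and no blue point appears between the compounds.

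Between the compounds, compared as 1 pair at the same dose and time, none of the 54 other wall genes was called by limma. The share of all clusters called there was 0.299%, or 50 of 16722. At an unadjusted p under 0.05 there were 2 of the 54, or 3.7% against 10.1% of all clusters, and none was called under any of the 18 alternatives. The 54 differences ran from -0.71 (XTH18, 95% interval -1.62 to 0.20) to 0.48 (EXPB3, -0.02 to 0.98). Others far from 0 were GH9B17 at -0.44, EXPA25 at -0.41, GH9B15 at -0.39, PME41 at 0.48, EXLA1 at 0.45, EXPA4 and XTH33 at 0.39 and PGX3 at 0.36. The members' values of 1.05, 1.11 and -1.28 lie outside that range on both sides, which follows from how they were chosen. For EXPA16 the interval of the difference was -0.60 to 0.95, and for EXLB1 -0.23 to 0.60. The values of EXPA8 and GH9C2 lie above both intervals, but they have errors of their own (SE 0.29 and 0.23). Whether EXPA16 or EXLB1 differed from EXPA8 or GH9C2 in this was not tested.

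For each member, the genes with the most similar pattern were sought among the 1761 others that carry a symbol. Likeness was the root mean square distance over the 9 arrays, in log2 units, after subtracting each gene's control mean. Because all of these genes share the same arrays and the same controls, the distances are a description without a test. The nearest genes were picked by these same values, and the pick favours genes with the member's own order of means. The distance is not scaled to the size of a gene's changes, so distances and places are not compared between members.

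The gene nearest to EXPA9 was RR16 (AT2G40670), a cytokinin-induced response regulator of type A, at a distance of 0.47. RR16 stood 2.62 above control with compound 3 and 1.97 with compound 6, a difference of -0.65 between the compounds. MSRB8, a methionine sulfoxide reductase, came next at 0.637, with 2.49 and 1.43. The others were NdhL, PRK and CaS, at 0.663 to 0.772, which differed between the compounds by -0.14 to 0.36. EXPA8 was number 16 in nearness to EXPA9 and GH9C2 number 43.

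Near EXPA8 were 5 genes of chloroplast proteins, at distances from 0.554 to 0.781. The nearest was CaS (AT5G23060), a thylakoid calcium-sensing protein, at 2.21 above control with compound 3 and 2.57 with compound 6. It was followed by SBPASE, the sedoheptulose-bisphosphatase of the Calvin cycle, HCF101, NdhL and CCB3. None of the 5 showed as large a difference between the compounds as EXPA8, with values from -0.13 to 0.37 against 1.05. GH9C2 was number 11 in nearness to EXPA8 and EXPA9 number 16.

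The 5 genes nearest to GH9C2 lay at distances from 0.413 to 0.458. They were SNZ (AT2G39250), an AP2-type repressor of flowering, AOR, a chloroplast alkenal reductase, CRR42, CHX16, a cation/proton exchanger, and TZP, a zinc knuckle protein of light signalling. All 5 had the same order of means as GH9C2, which the pick by distance favours. Compound 6 lay above compound 3 by 0.43 to 0.96, and CHX16 came closest to GH9C2 in that difference at 0.96. In nearness to GH9C2, EXPA8 was number 97 and EXPA9 number 463.

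**Figure D4:**
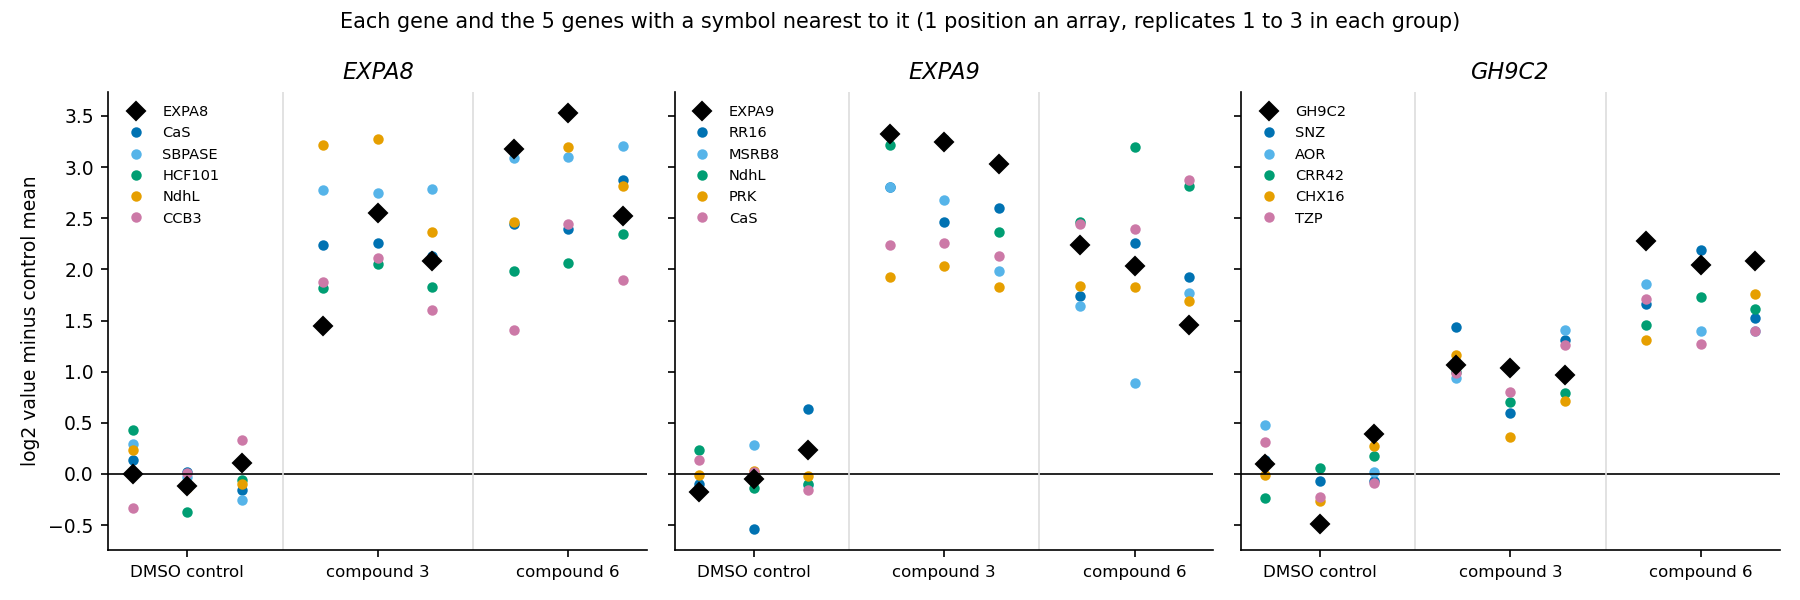
Log2 value minus the gene's control mean (vertical axis) on each of the 9 arrays, in a panel for each of EXPA8, EXPA9 and GH9C2 (black diamonds) with its 5 nearest genes with a symbol (coloured points). RR16 lies nearest to EXPA9 (distance 0.47), CaS nearest to EXPA8 (0.554) and SNZ nearest to GH9C2 (0.413).

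The genes beside the members in the genome were read on the same arrays. The measured gene on either side was AT2G40600 and AT2G40620 for EXPA8, AT5G02240 and AT5G02280 for EXPA9, and AT1G64385 and AT1G64405 for GH9C2. Between 0 and 2 annotated genes lay between a member and such a neighbour. None of the 6 was called by limma in any of the 3 comparisons, and their differences ran from -0.37 to 0.32. Of all clusters 11.7% were called with compound 3, 10.3% with compound 6 and 0.299% between the compounds. With so few neighbours nothing is read from the absence of calls. AT2G40600, directly beside EXPA8, read 9.21 in control leaves, 9.39 with compound 3 and 9.14 with compound 6 as group means.

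Of the 8 measured markers 1, RCA, was called higher than control with both compounds. Of all clusters 11.7% were called with compound 3 and 10.3% with compound 6, so nothing is read from that count. RCA was 0.93 higher with compound 3 (limma, adjusted p = 0.00607) and 1.13 higher with compound 6 (limma, adjusted p = 0.0018), and it differed by 0.20 between the compounds (adjusted p = 0.83). The other mesophyll transcripts rbcL and psbA, near the top of the array's range, differed from control by 0.00 to 0.04. Markers of guard cells, phloem, dividing cells, meristem and root, 1 gene each, did not pass in any comparison. The part of cell composition in the members' values was not tested.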

How the data were processed

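RNA of 9 leaf samples was measured, 1 array each. The authors deposited log2 expression values, made with RMA and the R package oligo per the submitters' processing notes, which also name limma and give no versions. The log base is not stated in the file. It was taken as log2 from values between 0.132 and 13.9. A genome build was not given in the sources used here, and signal over background was not measured. The file holds 38408 transcript clusters, of which 16722 have 1 gene, 759 several genes and 20927 no name here. Names were updated through the RefSeq table of TAIR10.1, used for names and gene order only.

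All contrasts came from 1 model over 9 arrays (limma 3.58.1, R 4.3.3, lmFit and eBayes), with 6 residual and 7.89 prior degrees of freedom. It was checked on simulated data. An exact permutation test of 3 against 3 arrays cannot go below p = 0.1, so none was used. Precision is limited by the number of arrays. The members and gene lists were chosen with earlier results of these data known. Named wall genes are, per family and comparison, up to 4 called genes with the greatest change or, with none called, up to 2 as values; EXPA4, EXPA7, EXPA18, GH9C1 and GH9C3 were added after their values were seen. The cluster with the highest mean stands for a gene with several. A planned search for promoter motifs was not run, since promoter sequences were not used here. Alternatives were other scalings, a replicate block, trended and robust moderation, array weights, 2 groups a fit, each array left out, all clusters tested, and dim clusters left out (every group mean under 3.75). Plots used matplotlib 3.10.9 and Python 3.11.15.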

Additional observations from a re-analysis of the deposited data

How the results depend on the processing

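Over the 135 recomputed differences of EXPA8, EXPA9 and GH9C2 none changed sign or moved by as much as the SD between replicates. That SD is pooled over the 3 groups, and single groups had smaller ones. Many of the 135 could not move. A replicate block, 2 groups a fit, or leaving out an array outside the comparison keeps both group means. Leaving out 1 of 3 arrays shifts a group mean by less than the SD of that group, so the count is a description. Compound 6 minus compound 3 ran from 0.77 to 1.33 for EXPA8, from -1.45 to -1.06 for EXPA9 and from 1.02 to 1.15 for GH9C2. Centring arrays on the median of all their transcript clusters moved the median of all tested clusters to -0.15 with compound 3 and -0.27 with compound 6, and the share of called clusters that rose from 47.8% to 29.3% and from 54.3% to 26.0%. Applying quantile normalization again gave shares of 38.5% and 38.9%. For compound 6 against compound 3 the share higher was 72%, and 58.7% with that centring. Relative to control, under that centring EXPA8 still stood 1.87 and 2.83 higher, EXPA9 3.04 and 1.67, and GH9C2 0.87 and 1.89.

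Calls of EXLB1 and GH9B7 with both compounds and of EXLA1 with compound 3 held in all 18 alternatives. With compound 6, 6 wall genes were called without compound 6 replicate 3 (EXPA16, XTH16 and XTH29 added) and 6 with dim clusters left out (EXPB3, PME41 and XTH29 added), where fewer genes are tested, and 2 to 6 over all left-out arrays. With compound 3 it was 3 to 4. The count over all clusters was 3360 with compound 3 and 3144 with compound 6 when all transcript clusters were tested, and 1319 to 1919 and 1227 to 1668 with 1 array left out. Between the compounds it was 50, and 3 with all clusters tested, 29 with the replicate block, 135 with arrays weighted, 107 with dim clusters left out and 20 to 112 with 1 array left out. Among the fits with 1 array left out it was highest, 112, without DMSO control replicate 3, and the cause was not tested. Same-numbered samples did not deviate together (r from -0.375 to 0.261), so the numbers were not taken as pairs. Differently numbered samples of different groups gave r from -0.319 to 0.511. The highest was between compound 6 replicate 2 and DMSO control replicate 3, and its cause was not tested. The EXLA1 call with compound 6 ended under the replicate block (adjusted p = 0.0847) and in 9 other alternatives.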
